A study of Homo sapiens with 24 samples.

Results

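Control cells that had been kept in doxycycline were set against control cells that had not, all grown in 3D. The data were 8 expression arrays of a series of 24, chosen by their labels: 3 arrays of the doxycycline-treated control line of the induction experiment, and 5 arrays of untreated control lines, 3 of the shRNA control line and 2 of the line that expressed a scrambled guide RNA. The cells were SW1222, an established human colorectal cancer line, grown at 21% oxygen in Matrigel, a basement membrane gel. The study measured what gain and loss of DPPA3, a gene best known from germ cells and early embryos, did to these cells, with a control line beside each kind of DPPA3 change. None of the 8 arrays came from a line with a DPPA3 change.

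The 3 treated arrays were of the control line for induced DPPA3 overexpression, given doxycycline at 5 µg/ml for the last 5 days of culture. The 3 arrays of the shRNA control line and the 2 arrays of the scrambled gRNA control line were labelled as untreated. The labels do not say what construct the control line of the induction experiment carried. Drug, vector and experiment changed together between the treated and the untreated arrays, so their effects cannot be told apart here, and every difference below is a difference between lines handled in different experiments. Nor do the labels say whether replicate arrays came from separate cultures, and the p-values therefore reflect the spread among these 8 and the other arrays alone, which may be technical.

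Doxycycline is a tetracycline antibiotic that binds the bacterial ribosome, and it also slows the ribosome of mitochondria, which makes a few subunits of the respiratory chain. The other subunits, and all the proteins of the mitochondrial ribosome, are encoded in the nucleus. In cell biology the drug is used chiefly as a switch for inducible transgenes, and the control line then receives it as well. Stress in mitochondria is known to activate ATF4, a transcription factor of the integrated stress response, whose targets include enzymes of serine, one-carbon and asparagine synthesis. Under low oxygen, HIF1A and its relatives raise genes of glycolysis, oxygen sensing and vessel growth.

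The promoters of 4 genes named in the results are shown first, 1 for each of 4 short motifs known from genes of its kind. Each belongs to the member with the largest difference among those that passed the test and hold the motif. Every window is 300 bases long around the gene's start, most of it upstream, taken from RefSeq on GRCh38.p14 and written 5′ to 3′ along the gene's strand, with the motif in capitals. DTL, which targets replication licensing proteins for destruction, has the window chr1:212035498-212035797 on the plus strand, with an E2F motif. PLK1, a kinase of mitosis, has chr16:23678639-23678938 on the plus strand, with a CHR motif. P4HA1, a collagen prolyl hydroxylase, has chr10:73096817-73097116 on the minus strand, with the core of a hypoxia response element. ASNS, asparagine synthetase, has chr7:97872359-97872658 on the minus strand, with a C/EBP-ATF motif. It was the only holder of that motif in its list that passed, since MTHFD1L and BCAT1 did not.
DTL: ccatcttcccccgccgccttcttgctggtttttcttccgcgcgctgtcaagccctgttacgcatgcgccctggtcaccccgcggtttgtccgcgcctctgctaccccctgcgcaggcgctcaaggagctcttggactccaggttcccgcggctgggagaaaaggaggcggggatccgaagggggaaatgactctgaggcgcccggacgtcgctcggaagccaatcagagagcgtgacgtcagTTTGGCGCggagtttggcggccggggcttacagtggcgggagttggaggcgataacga
PLK1: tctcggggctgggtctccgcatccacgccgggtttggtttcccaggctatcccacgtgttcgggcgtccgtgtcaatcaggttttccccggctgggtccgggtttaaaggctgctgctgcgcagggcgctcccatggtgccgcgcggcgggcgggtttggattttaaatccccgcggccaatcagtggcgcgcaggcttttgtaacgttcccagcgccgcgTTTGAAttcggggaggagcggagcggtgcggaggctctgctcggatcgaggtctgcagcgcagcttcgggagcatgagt
P4HA1: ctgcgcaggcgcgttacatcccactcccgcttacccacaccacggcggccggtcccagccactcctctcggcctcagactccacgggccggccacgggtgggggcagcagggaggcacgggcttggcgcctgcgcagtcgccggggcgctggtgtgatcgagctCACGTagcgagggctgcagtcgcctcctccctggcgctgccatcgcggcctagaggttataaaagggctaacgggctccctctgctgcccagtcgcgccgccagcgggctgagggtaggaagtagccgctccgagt
ASNS: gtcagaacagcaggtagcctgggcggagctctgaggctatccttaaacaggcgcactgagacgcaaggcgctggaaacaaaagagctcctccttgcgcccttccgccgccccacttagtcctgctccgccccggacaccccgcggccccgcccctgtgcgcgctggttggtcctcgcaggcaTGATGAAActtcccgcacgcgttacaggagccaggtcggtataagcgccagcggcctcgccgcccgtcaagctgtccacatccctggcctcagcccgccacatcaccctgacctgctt

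As a description, the motifs were counted on both strands of such windows, and a match is no evidence of a bound factor. Of 36 genes of S phase and DNA replication with a window, 18 held an E2F motif, searched as TTTCCCGC or TTTGGCGC, which is 50%, against 3.11% of 13864 genes. The CHR motif, TTTGAA, was in 21 of 32 genes of G2 and mitosis, 65.6%, against 11.8% of all. ACGTG, the core of the hypoxia response element, was in 16 of 27 genes of the hypoxia list, 59.3%, against 24% of all. Of 9 genes of serine, one-carbon and amino acid synthesis, 3 held TGATGNAA, the C/EBP-ATF motif, 33.3% against 2.48% of all. The palindromic motif of NRF1, a regulator of mitochondrial genes, was in 1 of 68 genes of mitochondrial ribosomal proteins, 1.47%, and in 1.82% of all. None of these motifs contains another. The shares describe lists of known genes and not the called genes. Of the hypoxia genes with ACGTG, BNIP3, EGLN1, ANGPTL4, LOX, INSIG2, KDM4B, PPFIA4 and HK2 did not pass the test, and the others did. CDT1, E2F1, E2F2 and UHRF1 held the E2F motif and did not pass, and CDK1 was the only such gene for CHR. Whether holders of a motif were called more often than other members was not tested.

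The values are log2 signals made by the authors with RMA, in which an increase of 1 is a doubling, and a level is not comparable between genes. The medians of the 8 arrays lay between 4.06 and 4.11, and replicate arrays of a group correlated across genes at 0.987 to 0.994, where genes are not independent. Treated and untreated arrays correlated at 0.983 to 0.986, and arrays of the shRNA and scrambled gRNA control lines at 0.990 to 0.992. DPPA3 itself read 2.99, 2.59 and 2.97 in the treated line, against 2.80, 2.78 and 3.15 in the shRNA control line and 2.68 and 3.03 in the scrambled gRNA control line, a log2 difference of -0.03 ± 0.28 (SE, 3 against 5 arrays; adjusted p = 0.967, limma). The 14 markers of colorectal epithelium averaged 8.51 to 8.77 in the treated arrays, against 8.86 to 9.02 in the untreated ones. The 12 measured fibroblast markers averaged 2.73 to 2.77 in treated and 2.72 to 2.81 in untreated arrays, and the 12 measured leukocyte and endothelial markers 2.81 to 2.86 and 2.87 to 2.89. None of these 24 differed by the test, and 1 of each 12 stood above 4.09, the median of all genes: COL1A1 and CD68.

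Across 17448 genes, 2050 differed between the treated line and the mean of both untreated lines at an adjusted p under 0.05 (limma, Benjamini-Hochberg), of which 1398 were higher and 652 lower in the treated line, 8.01% and 3.74% of genes. A gene of median precision had a standard error of 0.111. Only 55 of the 2050 differed by 2-fold or more. Against the shRNA control line alone 1152 genes were higher and 599 lower, 6.6% and 3.43%, or 10% in all. Against the scrambled gRNA control line alone 882 were higher and 381 lower, 5.06% and 2.18%, or 7.24% in all. Both comparisons use the same 3 treated arrays. Their common part, called in the same direction against each, was 653 genes higher and 242 lower, 895 or 5.13% in all. Between the untreated lines, 25 genes were higher in the shRNA control line and 26 lower, 0.292% of genes in all, although 1112 had an unadjusted p under 0.05. That count was 9 (6 higher, 3 lower) without the first scrambled gRNA array, 10 (1 higher, 9 lower) without the second, and 18 with the spread from the 8 arrays alone, so its size and balance depend on single arrays. The 2 scrambled gRNA arrays decide much of the size of these counts: without the first or the second, 556 or 458 genes were called against that line and 425 or 378 against both, and without the first treated array 824 and 561 (591 against both without the second).

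**Figure D1:**
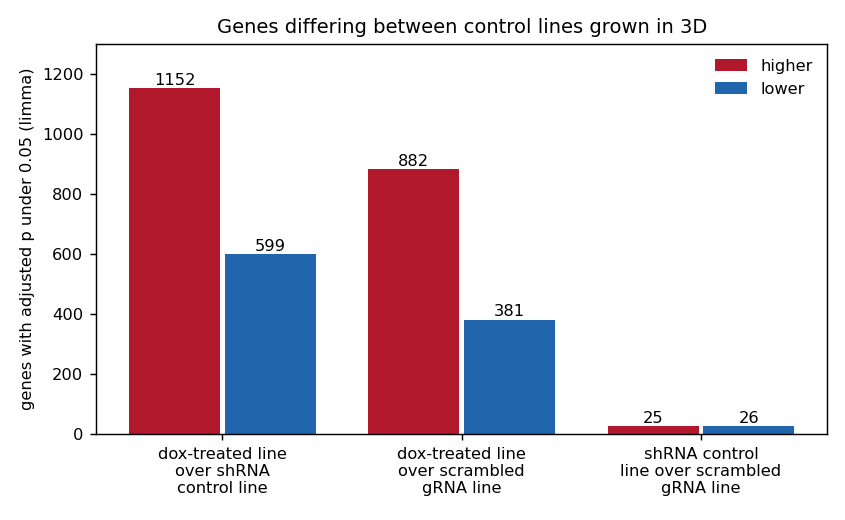
Number of genes (vertical axis) with an adjusted p under 0.05 in limma, higher in red and lower in blue, for the treated line over each untreated control line and for the untreated lines against each other. The treated line differed from either untreated line in 1751 and 1263 genes, and the untreated lines from each other in 51, a number that was 9 or 10 without 1 of the scrambled gRNA arrays.

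Genes of cell division were higher in the treated line almost throughout. Of 39 genes of G2 and mitosis, 37 rose and none fell, at a median log2 difference of 0.63, and 36 rose against each untreated line, where the background is 3.74% of genes. Of 39 genes of S phase and DNA replication, 32 rose and none fell, at a median of 0.59, and 23 rose against each. The median over all genes was -0.01, and 14.8% of the genes brighter than the median of all genes were called higher, a nearer background for lists in which nearly every member is that bright. The 7 members of the S phase list that did not pass were CCNE1, CCNE2, CDT1, E2F1, E2F2, SLBP and UHRF1, with log2 differences of 0.13 to 0.38, and the 2 of the mitosis list were CDK1 at 0.32 and CDC25C at 0.26. These 9 are named because they are the whole remainder.

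RRM1, the large subunit of ribonucleotide reductase, which makes the building blocks of DNA, read 6.58, 6.48 and 6.65 in the treated line, against 5.31, 5.25 and 4.93 in the shRNA control line and 5.06 and 5.09 in the scrambled gRNA control line. It rose by 1.45 ± 0.10 (SE), or 2.74-fold, at an adjusted p of 3.59e-10 (limma), and the lowest treated array lay above the highest untreated one. DTL, whose promoter is shown above, read 6.23, 6.26 and 5.95 in the treated line, against 4.92, 5.11 and 5.27, and 5.03 and 4.82, in the untreated lines. Its log2 difference was 1.14 ± 0.12. CDC6, which loads the replicative helicase, rose by 1.08, and RFC3 and RFC2 of the clamp loader rose by 1.0 and 1.09. PLK1 read 6.79, 6.79 and 6.61 in treated arrays, against 5.77, 5.94 and 5.81, and 5.68 and 5.62, in untreated arrays. The kinases BUB1 and MELK rose by 0.98 and 0.89, ANLN of the cleavage furrow by 0.79, and the transcription factor FOXM1, a driver of mitotic genes, by 0.74. MKI67, the usual marker of dividing cells, read 7.97, 8.0 and 8.06 in the treated line, against 7.68, 7.72 and 7.57 in the shRNA control line and 7.27 and 7.27 in the scrambled gRNA control line. That is a log2 difference of 0.55 ± 0.09 (adjusted p = 0.000247, limma), with each group apart from the others. CDKN1A, an inhibitor of the cell cycle, read 4.08 to 4.53 in treated and 3.88 to 4.45 in untreated arrays and did not pass (0.04 ± 0.14, adjusted p = 0.913).

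Ribosome biogenesis moved the same way. Of its 26 measured genes, 20 rose and none fell, at a median of 0.47, and 14 rose against each untreated line, beside the same shares of all genes. MRTO4, a factor of the large subunit, read 6.86, 6.69 and 6.24 in the treated line, against 5.65, 5.60 and 5.83, and 5.35 and 5.66, in the untreated lines, a rise of 1.0 ± 0.13. The nucleolar proteins NOLC1 and NOP16 rose by 0.66 and 0.70, and WDR12 by 0.57. Whether the cultures held a larger share of dividing cells, or dividing cells held more of these RNAs, cannot be told apart in bulk RNA. All 3 treated arrays lay above all 5 untreated arrays for 37 of the 39 mitosis genes, 32 of the 39 S phase genes and 18 of the 26 ribosome biogenesis genes, where 10.1% of all genes did so.

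**Figure D2:**
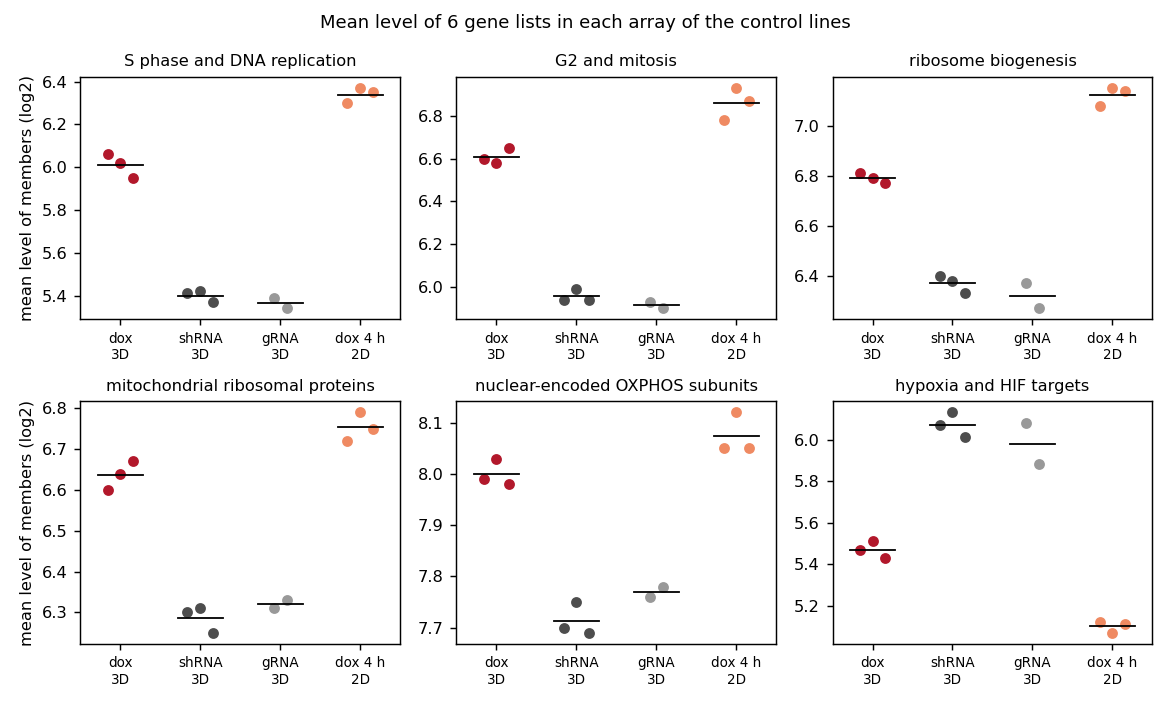
Mean log2 signal of the measured members of 6 gene lists (vertical axes, each with its own range) in each array, for the treated line in 3D, the shRNA and scrambled gRNA control lines in 3D, and the treated line in 2D after 4 hours of doxycycline; points are arrays and lines are group means. In 3D the treated arrays lie above all untreated arrays in 5 lists and below them in the hypoxia list, and the 2D arrays lie further out in each list.

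The same control line was also measured in 2D after 4 hours of doxycycline, where culture form and time differ as well. The mean of the mitosis list was 6.58 to 6.65 in the line in 3D and 6.78 to 6.93 in those 3 arrays in 2D. For the hypoxia list it was 5.43 to 5.51 in 3D and 5.07 to 5.12 in 2D. No test was made between these groups, since drug exposure and culture form changed together.

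Nuclear genes of mitochondrial translation and respiration were higher in the treated line by small amounts. Of 75 genes of mitochondrial ribosomal proteins, 35 rose and none fell, at a median log2 difference of 0.32, and 74 lay above 0. Of 70 nuclear genes of oxidative phosphorylation, 24 rose and none fell, at a median of 0.26, with 66 above 0. Over all genes 8.01% rose, and 14.8% of the brighter genes, to which 74 of the 75 and 69 of the 70 belong. In 1 direction against each untreated line 16 and 8 rose, where the background is 3.74%. The counts rest partly on single treated arrays: without the second, 23 ribosomal protein genes rose, and without the first or the second, 13 or 14 oxidative phosphorylation genes. The 15 genes of the mitochondrial genome were not analysed here.

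MRPL52 of the large mitochondrial subunit read 6.28, 6.29 and 6.32 in the treated line, against 5.75, 5.59 and 5.50 in the shRNA control line and 5.65 and 5.64 in the scrambled gRNA control line, a rise of 0.67 ± 0.09 (adjusted p = 2.53e-05, limma). MRPS23 of the small subunit read 6.27, 6.15 and 6.35 in treated arrays, against 5.57, 5.34 and 5.43, and 5.72 and 5.49, in untreated arrays, a rise of 0.73 ± 0.12. In both, treated and untreated arrays did not overlap. MRPS35 and MRPL27 rose by 0.59 and 0.54. Among the respiratory chain genes, ATP5MC1 of ATP synthase read 9.28, 9.39 and 9.09 in the treated line, against 8.73, 8.62 and 8.67, and 8.75 and 8.80, in the untreated lines, a rise of 0.53 ± 0.09. The complex I subunits NDUFA9, NDUFB10 and NDUFS6 rose by 0.59, 0.45 and 0.43. Of 17 mitochondrial chaperones, proteases and import proteins 6 rose, among them TIMM17A of the inner membrane import channel by 0.53 and the chaperone TRAP1 by 0.45, where 14.8% of the brighter genes rose. That count was 3 without the first or the second treated array, or without the second scrambled gRNA array. The protease OMA1, which relays mitochondrial stress, was the 1 member that fell: it read 4.76, 4.72 and 4.63 in the treated line, against 5.14, 5.21 and 5.04, and 5.03 and 5.20, in the untreated lines, and fell by 0.42.

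Genes of the integrated stress response moved both ways. ATF4 read 6.26, 6.15 and 5.79 in the treated line, against 6.25, 5.82 and 5.82, and 5.74 and 5.99, in the untreated lines, groups that overlap (0.15 ± 0.14, adjusted p = 0.571, limma). DDIT3, a target of ATF4 that promotes cell death, read 4.72 to 5.01 in treated and 4.59 to 5.0 in untreated arrays (0.12 ± 0.11, adjusted p = 0.589). CHAC1, which degrades glutathione, read 4.56, 4.63 and 4.33 in treated arrays, against 4.08, 4.15 and 4.19, and 3.88 and 4.25, in untreated arrays. Its difference of 0.40 ± 0.16 missed the threshold (adjusted p = 0.103), and it passed where the spread was estimated from the 8 arrays alone. Of 26 members 4 rose and 4 fell, at a median of 0.05. The share that rose is near the 14.8% of brighter genes called higher, and the share that fell is above the 6.02% of brighter genes called lower. All 4 that rose belong to amino acid carriers, SLC7A5, SLC1A4 and SLC3A2 with log2 differences of 0.89, 0.75 and 0.56, and SLC7A1 with 0.32. The 4 that fell were DDIT4, an inhibitor of mTORC1, by 0.85, the secreted factor GDF15 by 0.50, KLHL24 by 0.50 and the pseudokinase TRIB3 by 0.41. SLC7A1, GDF15, KLHL24 and TRIB3 are named after their values were seen. Without the first treated array 2 genes fell, and GDF15 was not called (-0.42).

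Serine and one-carbon enzymes were higher. Of 13 such genes 6 rose and none fell, at a median of 0.26, and 4 rose against each untreated line, where 8.01% of all genes and 14.8% of the brighter ones rose, and 3.74% of all genes against each line. PSAT1, of serine synthesis, read 7.95, 7.84 and 8.05 in the treated line, against 6.92, 7.01 and 7.10 in the shRNA control line and 7.06 and 6.93 in the scrambled gRNA control line, a rise of 0.94 ± 0.11 or 1.93-fold (adjusted p = 3.6e-06, limma). PHGDH, the first enzyme of that path, read 6.86, 6.86 and 6.63 in treated arrays, against 6.07, 5.94 and 5.67, and 6.0 and 5.87, in untreated arrays, a rise of 0.87. The mitochondrial one-carbon enzymes MTHFD2 and SHMT2 rose by 0.69 and 0.68. ASNS read 7.35, 7.13 and 7.48 in the treated line, against 6.91, 7.06 and 7.05, and 6.79 and 6.81, in the untreated lines. Its difference was 0.41 ± 0.11 (adjusted p = 0.00944), but against the shRNA control line alone it did not pass (0.31, adjusted p = 0.103), and without the third treated array it did not pass at all (0.33, adjusted p = 0.0708). Of 17 cytosolic aminoacyl-tRNA synthetases, which charge tRNAs for translation, 11 rose and none fell, at a median of 0.34, beside the same shares, led by CARS1 at 0.60. The unfolded protein response of the endoplasmic reticulum gave 1 call in 17, PDIA4 at 0.30, which was lost without the first treated array (0.24).

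**Figure D3:**
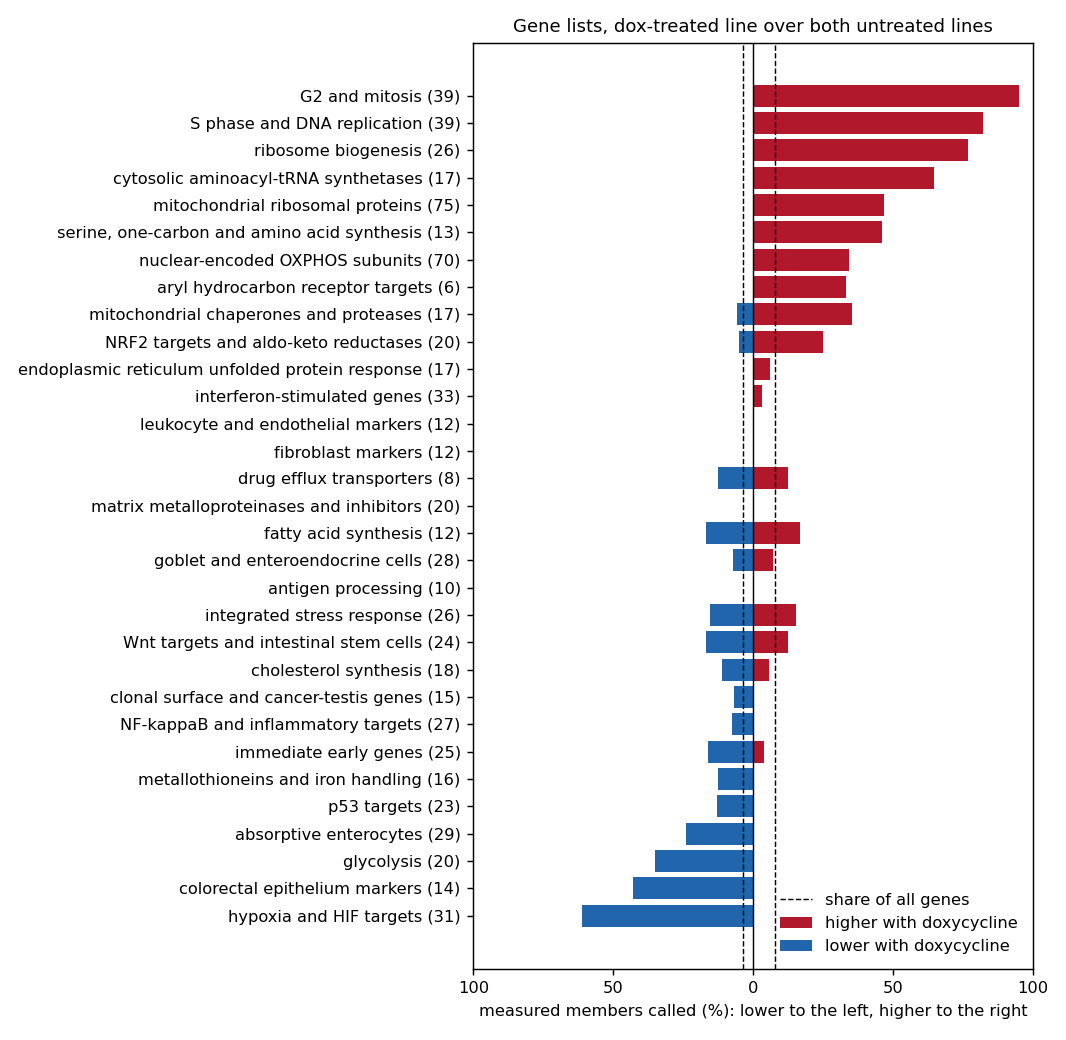
Share of the measured members of each list (number in brackets) that were called higher, to the right in red, or lower, to the left in blue, in the treated line over the mean of both untreated lines. Dashed lines mark 8.01% and 3.74%, the shares of all genes called higher and lower; G2 and mitosis, with 37 of 39, and hypoxia, with 19 of 31, lie at the ends.

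Genes known to answer low oxygen were lower in the treated line. Of 31 genes of the hypoxia list, 19 fell and none rose, at a median log2 difference of -0.45, where 3.74% of all genes and 6.02% of the brighter ones were called lower. Of the 31, 13 fell against each untreated line, where the background is 1.39%. All 3 treated arrays lay below all 5 untreated ones for 23 of the 31, and for 6.55% of all genes. The untreated lines differed little from each other in this list, with a median of 0.09 for the shRNA control line over the scrambled gRNA control line and no member called. Oxygen in the incubator was the same for every group.

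P4HA1 read 4.90, 5.02 and 4.85 in the treated line, against 6.68, 6.82 and 6.44 in the shRNA control line and 6.67 and 6.53 in the scrambled gRNA control line. It fell by 1.70 ± 0.12 (SE), or 3.25-fold (adjusted p = 5.39e-10, limma), with a gap of more than 1 log2 unit between treated and untreated arrays. NDRG1, a stress-induced gene of differentiated epithelium, read 7.34, 7.51 and 7.20 in treated arrays, against 8.96, 8.99 and 8.85, and 9.11 and 8.59, in untreated arrays, and fell by 1.54 ± 0.15. VEGFA, the growth factor of blood vessels, read 6.82, 6.97 and 6.70 in the treated line, against 7.99, 8.01 and 7.78, and 8.12 and 7.82, in the untreated lines, and fell by 1.12 ± 0.12. PLOD2, a lysyl hydroxylase of collagen, fell by 1.01. Not every classical member passed: the glucose transporter SLC2A1 had -0.12 (adjusted p = 0.689), ADM -0.38 (0.0709) and BNIP3 -0.17 (0.264), genes named after their values were seen.

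Glycolysis, which shares genes with that list, had 7 of 20 genes lower and none higher, at a median of -0.25, and 5 fell against each untreated line. The shares of all genes are 3.74% and 1.39%, and 6.02% of the brighter genes were called lower. ALDOC, an aldolase, read 7.04, 6.96 and 6.23 in the treated line, against 7.95, 8.05 and 8.01, and 7.97 and 7.93, in the untreated lines. It fell by 1.23 ± 0.15. The phosphofructokinase PFKP fell by 0.89, the phosphoglycerate kinase PGK1 by 0.66 and the regulator PFKFB4 by 0.72.

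**Figure D4:**
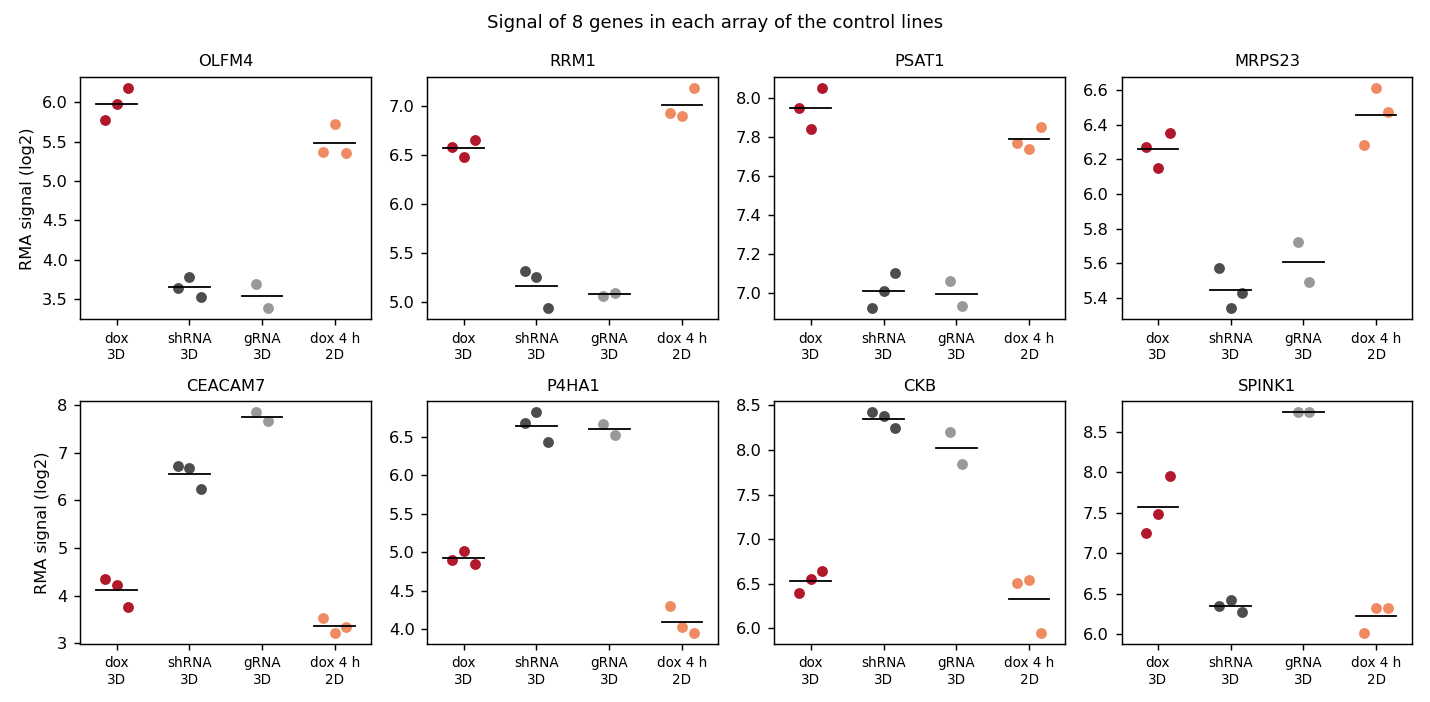
Log2 signal (vertical axes, each with its own range) of 8 genes in each array of the treated line in 3D, the shRNA and scrambled gRNA control lines in 3D and the treated line in 2D; points are arrays and lines are group means. For 7 genes the treated 3D arrays lie wholly above or below the untreated ones, and for SPINK1 they lie between the untreated lines.

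Wnt target and stem cell genes of the gut, taken as 1 list, went both ways. Several markers of its mature cells were lower in the treated line, and a few were higher. OLFM4, a marker of intestinal stem cells, rose more than any other gene named by the rule for the largest differences: it read 5.77, 5.98 and 6.18 in the treated line, against 3.64, 3.78 and 3.52 in the shRNA control line and 3.69 and 3.38 in the scrambled gRNA control line, 2.39 ± 0.13 or 5.24-fold (adjusted p = 7.73e-12, limma). LGR5, the best known stem cell marker, read 6.33, 6.69 and 6.40 in treated arrays, against 6.69, 6.80 and 6.85 in the shRNA control line and 6.12 and 6.0 in the scrambled gRNA control line, and did not pass (0.05, adjusted p = 0.837), while the untreated lines differed from each other. Of 24 Wnt target and stem cell genes 3 rose, OLFM4, CDCA7 and MYC, and 4 fell, with DKK1, an inhibitor of Wnt signalling, falling by 1.02. Of all genes 8.01% rose and 3.74% fell, and of the brighter ones, to which 21 of the 24 belong, 14.8% and 6.02%. The share of the list that rose is not above that of the brighter genes. The count of 4 was 1 without the third treated array, and 2 without the first scrambled gRNA array or with the spread from the 8 arrays alone, and MYC did not pass without the second scrambled gRNA array (adjusted p = 0.0611).

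CEACAM7, an adhesion molecule of mature colonocytes, fell most of the genes named by that rule: it read 4.35, 4.23 and 3.77 in the treated line, against 6.72, 6.68 and 6.25 in the shRNA control line and 7.85 and 7.68 in the scrambled gRNA control line. It fell by 3.04 ± 0.17, or 8.21-fold (adjusted p = 7.73e-12). It was lower still against the scrambled gRNA line than against the shRNA line (log2 differences of -3.64 and -2.43), since the untreated lines differed as well. Of 29 genes of absorptive enterocytes 7 fell and none rose, at a median of -0.12, where 3.74% of all genes and 6.02% of the brighter ones fell. Their mean level was 4.28 to 4.36 in the treated arrays, against 4.48 to 4.77 in the untreated ones, without overlap. But 4 members were also lower in the shRNA than in the scrambled gRNA control line, and 4 fell against each, where the background is 1.39%. KRT20, a keratin of differentiated colon cells, read 7.56, 7.49 and 7.16 in treated arrays, against 8.42, 8.39 and 8.47, and 8.42 and 8.21, in untreated arrays, and fell by 0.97. The bile acid carrier SLC51A fell by 0.90 and CEACAM1 by 0.68. Of the 14 epithelial markers 6 fell, KRT20 and GPA33 by the most at 0.97 and 0.64, while EPCAM, CDH1 and CDX2 did not pass. Of the brighter genes, to which all 14 belong, 6.02% were called lower. Against each untreated line 3 of the 14 fell, where the background is 1.39%, and 1 was higher than in the shRNA control line. Between the untreated lines, 2 were lower in the shRNA control line. The mean of those 14, given above, was lower in every treated array than in any untreated one. Of 28 goblet and enteroendocrine genes 2 rose and 2 fell: the trefoil peptide TFF3 fell by 1.22, somatostatin (SST) by 0.38, SPINK4 rose by 0.94 and the mucin MUC2 by 0.38. Of all genes 8.01% rose and 3.74% fell, so the share of the list that rose is not above the background. Against each untreated line 1 rose and 1 fell. SST was not called without the first treated array (-0.29).

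Other large single differences went both ways. SCARNA14 and SCARNA22, small RNAs that guide modification of spliceosomal RNA, rose by 1.85 and 1.21, and AKR1C2, an aldo-keto reductase, by 1.20. The histone genes H2AC14 and H2BC14 rose by 1.31 and 1.17, PBK, a mitotic kinase, by 1.12 and INTS7 of the Integrator complex by 1.07. NRN1, neuritin, read 4.76, 4.64 and 4.47 in the treated line, against 7.15, 6.90 and 6.88, and 7.08 and 6.75, in the untreated lines, and fell by 2.32 ± 0.17. The anti-inflammatory cytokine IL37 fell by 1.91, the sialyltransferase ST8SIA6 by 1.86, brain-type creatine kinase CKB by 1.65, the uroplakin UPK1A by 1.41, the sulfhydryl oxidase QSOX1 by 1.34, the receptor tyrosine kinase KIT by 1.29 and IL1A by 1.25. For each of these 24 genes, which the rule requires, treated and untreated arrays did not overlap.

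Lists of drug response, inflammation and lipid synthesis are given next, and their counts stand beside 8.01% of all genes higher and 3.74% lower, or 14.8% and 6.02% of the brighter genes. Some of these lists are mostly dim. Above the median level of all genes lay 9 of 33 interferon-stimulated genes, 10 of 27 NF-kappaB targets and 2 of 15 cancer-testis and surface genes. The share of brighter genes is no background for these, and few calls among dim genes say little. Of 20 NRF2 targets and aldo-keto reductases, genes of the oxidant response, 5 rose and 1 fell, with TALDO1 at 0.81, GSR at 0.71 and TXNRD1 at 0.48 beside AKR1C2. Of 6 measured targets of the aryl hydrocarbon receptor 2 rose and none fell, at a median of 0.26. CYP1A1, the main target, read 6.01, 6.07 and 5.48 in the treated line, against 4.77, 4.82 and 4.86, and 5.04 and 5.25, in the untreated lines, a rise of 0.87 ± 0.17, and CYP1B1 rose by 0.55. Of 20 genes of matrix metalloproteinases and their inhibitors none was called, at a median of -0.08, and only 5 lay above the median level of all genes. Tetracyclines are known to inhibit the activity of metalloproteinases, which RNA does not measure. The efflux pump ABCC2 rose by 0.49 and ABCC3 fell by 0.45, out of 8 drug efflux transporters. Of 33 interferon-stimulated genes 1 rose (IFITM1, 0.34), and of 10 antigen processing genes none was called. Of 23 p53 targets 3 fell, TP53INP1 by 0.57, GDF15 by 0.50 and SESN1 by 0.35, and of 27 NF-kappaB targets 2 fell, IL1B by 0.79 and TNIP1 by 0.42. Among metallothioneins and iron genes 2 of 16 fell, the iron exporter SLC40A1 by 0.77 and the importer SLC11A2 by 0.54. Cholesterol synthesis had 1 of 18 genes higher (ACAT2, 0.31) and 2 lower (MSMO1, -0.56, and INSIG1, -0.34), and fatty acid synthesis 2 of 12 higher (ACACA and ACLY) and 2 lower (ACSS2 and SCD). Of 25 immediate early genes MYC rose, and DUSP6, SPRY2, JUNB and KLF4 fell by 0.31 to 0.49; none of the 25 fell without the first treated array. Of 15 cancer-testis and surface genes SYCP3 alone fell, by 0.35. With 1 treated array left out, ABCC2, ABCC3, ACACA, ACAT2, ACLY, DUSP6, GDF15, IFITM1, INSIG1, JUNB, SESN1, SPRY2, SYCP3 and TNIP1 each lost their call at least once, at differences of -0.51 to 0.33.

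Some genes differed between the untreated lines themselves. SPINK1, a trypsin inhibitor secreted by gut epithelium, read 7.25, 7.49 and 7.96 in the treated line, against 6.35, 6.43 and 6.27 in the shRNA control line and 8.74 and 8.74 in the scrambled gRNA control line. It was therefore higher than the first (1.22) and lower than the second (-1.17), and its difference from their mean was 0.02. CYP24A1, which breaks down vitamin D, was lower than in the shRNA control line only (-0.81, against 0.32 over the scrambled gRNA line), as were OPTN (-0.81 and -0.15) and ARHGAP21 (-0.77 and -0.08). VRK1, a kinase of dividing cells, was higher than in the shRNA control line (0.81 and 0.31). RAB3B, ASB4 and DACH1 were higher than in the scrambled gRNA line (1.53, 1.07 and 0.76) without passing against the shRNA line, and LY6G6C, ADIRF and TSPAN8 were lower (-1.39, -0.85 and -0.83). In each of these genes the untreated lines differed by the test. LAMB1 and FAM3B, among the largest differences between the untreated lines (0.93 and -1.17), did not pass against their mean.

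The same split was read a second time on 10 arrays, none of which enters the group means compared above: 3 of the DPPA3-induced line with doxycycline for 5 days, against 3 of the DPPA3 shRNA line and 4 of 2 DPPA3 knockout clones, all in 3D. The drug, vector and experiment differ there in the same way, and DPPA3 differs too (log2 difference of 1.48 ± 0.26), so this is the same confounded split and not a test of the drug. Since 1 fit covers all arrays, both sets share each gene's estimate of spread, and their calls are not separate tests. On those arrays 1444 genes were higher and 743 lower, 8.28% and 4.26%. Of the 1398 genes higher in the treated control line 516 were called higher there as well, which is 36.9% of that list and 35.7% of the other, and of the 652 lower ones 206 were, 31.6% and 27.7%. In the opposite direction 13 and 27 were called. Across all genes the differences correlated at 0.469 (Pearson) and 0.44 (Spearman), as a description over genes that are not independent.

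The lists differed in how far they carried over. The median of mitochondrial ribosomal proteins was 0.32 in the control lines and 0.30 on the other arrays. There 36 of 75 members were called higher and none lower, where 8.28% of all genes were called higher and 4.26% lower. Oxidative phosphorylation genes had medians of 0.26 and 0.32, with 40 of 70 called higher there and 1 lower. Serine and one-carbon genes had 0.26 and 0.62, with 9 of 13 called there. The integrated stress response went further up on the second set, with a median of 0.05 in the control lines and 0.24 there, and 11 of 26 genes called higher and 1 lower. For G2 and mitosis the medians were 0.63 and 0.23, for S phase 0.59 and 0.22, for ribosome biogenesis 0.47 and 0.19 and for hypoxia -0.45 and -0.14. In the same direction 16 of 39, 12 of 39, 8 of 26 and 5 of 31 members were called. In the opposite direction 2 hypoxia genes were called, among them LDHA with 0.385, and no member of the lists for G2, S phase or ribosome biogenesis. Of the 31 hypoxia genes 10 lay above 0 there, against 1 in the control lines. RRM1 rose by 1.15 and DTL by 1.23 on the second set, where DTL lies in a raised neighbourhood of chromosome 1 (median over 21 neighbouring genes of 0.44, against 0.11 in the control lines). P4HA1 had -0.31 there (adjusted p = 0.0629), and its difference between the sets, -1.39 ± 0.16, passed the test (adjusted p = 5.26e-06, limma), which 629 genes or 3.6% of all passed. That test was added after the values were seen, on a gene chosen for a large difference in the control lines. These list medians were not tested against each other.

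**Figure D5:**
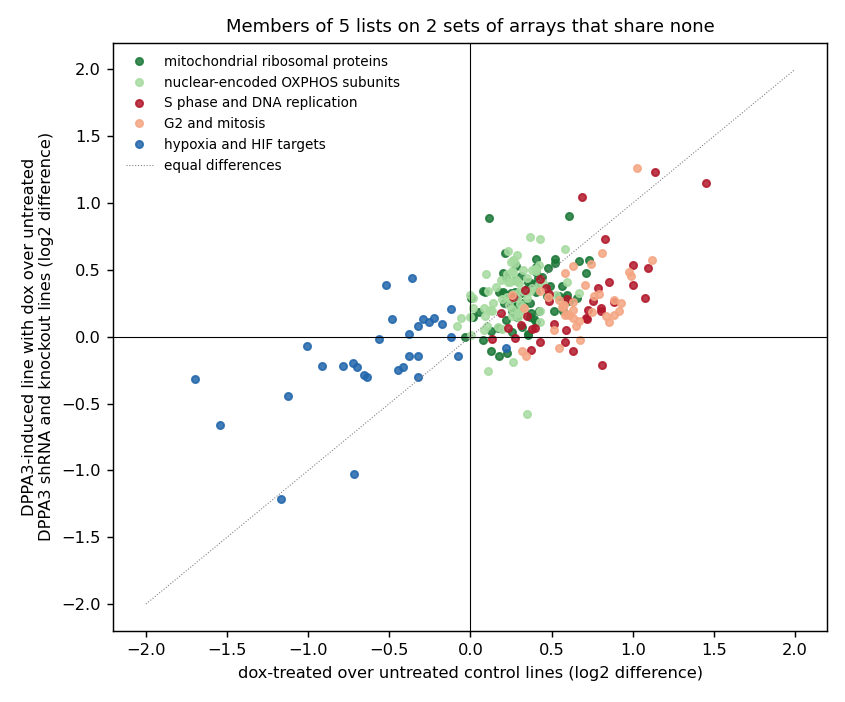
Log2 difference of each measured member of 5 lists in the treated over the untreated control lines (horizontal axis) and in the DPPA3-induced line over the DPPA3 shRNA and knockout lines (vertical axis), whose group means share no array; the dotted line marks equal differences. Mitochondrial genes scatter about that line, and most genes of the cell cycle and hypoxia lists lie nearer to 0 on the vertical axis.

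Runs of neighbouring genes were compared as well. The median over 21 neighbouring genes in RefSeq order exceeded 0.2 log2 in size around 70 genes, 62 raised and 8 lowered. Of these, 46 were on chromosome 6, 38 of them clustered histone genes, a family whose genes lie together and are transcribed in S phase. H2AC14 and H2BC14 lie in that block, where the neighbours' median was 0.47. Between the untreated lines 68 genes of chromosome 7, ASNS and ASB4 among them, lay in raised neighbourhoods, with medians of 0.21 to 0.26 for the shRNA control line over the scrambled gRNA control line. Copy number was not measured, and its part in these shifts was not tested. Without such neighbourhoods 2010 genes differed between the treated and the untreated lines. On the second set of arrays 295 genes lay in raised and 217 in lowered neighbourhoods, 137 of the raised ones on chromosome 1 and 124 of the lowered ones on chromosome 10, and 1945 genes in place of 2187 differed without them.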

How the data were processed

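Total RNA of SW1222 cells was hybridised to Affymetrix expression arrays, and the values used are the deposited log2 signals, which the authors made with RMA in Partek 6.6, per the submitters' processing notes. The method subtracts background, gives all arrays 1 distribution and summarises probe sets. A genome build for the probes was not given in the sources used here. Values ran from 1.56 to 12.51. The number of arrays limits the precision.

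Of 20276 probe sets, 18062 carried 1 gene symbol in the platform annotation, which is old, 1288 carried several and 926 none; only the first kind was used. The brightest probe set stood for each of 468 genes with several, giving 17448 genes. All 24 arrays in 9 groups were fitted with limma 3.58.1 in R 4.3.3 (two-sided moderated test, 15 residual and 9.81 prior degrees of freedom, Benjamini-Hochberg over all genes, threshold 0.05). A run on simulated data, with independent noise and no differences between lines, checked only that shifts planted in the treated group were recovered. It cannot speak to the confounding or to whether replicates are technical. The treated line was set against the mean of both untreated lines, each line weighted equally, then against each. In the second set of arrays the shRNA line and the mean of the knockout clones were weighted equally. Members and lists were chosen with earlier results of these data known, so list counts stand beside the share of all genes and have no p. Named genes are the 12 largest differences per direction that passed in all 3 comparisons without overlap of arrays and above the median level, up to 4 members per list with the smallest p, the largest differences specific to 1 untreated line or between them, and 9 fixed genes. Arrays with the same replicate number in different groups did not deviate together (correlations of -0.094 to 0.079), so the numbers do not pair them. Alternatives were the weighting of the untreated arrays, the spread from 8 arrays, mean probe sets, bright genes only, a trended robust prior, median centring, a replicate block, removal of shifted neighbourhoods and leaving out each array. Promoter windows came from RefSeq.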

Additional observations from a re-analysis of the deposited data

Results flagged for a closer look

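The difference of 16 of the 24 largest genes was not the same on the arrays of the DPPA3-induced line against DPPA3 shRNA and knockout lines, by a test of the difference between the sets (limma, adjusted p under 0.05), in which DPPA3 differs as well. Over all genes 3.6% passed that test. The 24 were chosen for large differences in the control lines, which tilts the test towards a gap, so the number is a description and no evidence that the sets differ. OLFM4 rose by 2.39 in the treated control line and by 4.97 in the DPPA3-induced line, a gap of -2.586, and SCARNA14 by 1.85 and 3.64, a gap of -1.793. KIT, CKB and IL37 went opposite ways, with -1.29, -1.65 and -1.91 in the control lines and 2.38, 0.79 and 0.46 on the other arrays, gaps of -3.669, -2.44 and -2.374. The 0.46 of IL37 rests mainly on 1 knockout clone. Its mean was 6.57 in the DPPA3-induced line, against 6.31 in the DPPA3 shRNA line and 5.46 and 6.34 in the clones. AKR1C2 and H2AC14 had 1.20 and 1.31 in the control lines and -0.46 and -0.38, which did not pass, on the other arrays, gaps of 1.663 and 1.695.

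Other gaps were 1.01 for H2BC14 and 0.788 for CDC6, both higher in the treated control line. The genes lower in it gave -1.686 for NRN1, -1.386 for P4HA1, -1.066 for QSOX1, -0.89 for ALDOC, -0.884 for NDRG1 and -0.878 for CEACAM7, each further below its untreated lines in the control set. UPK1A, with a gap of 1.101, was further below on the other arrays.

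CEACAM7 also differed between the untreated control lines, so that its fall against the scrambled gRNA line exceeded that against the shRNA line by a log2 difference of -1.215 (adjusted p = 0.00642, limma).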

How the results depend on the processing

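No named gene that was called against the mean of both untreated lines reversed under any alternative that was run. The direction of single genes was not checked in the other comparisons. Of the differences that were not called, those of CDKN1A, DPPA3, LGR5 and SPINK1 changed sign in some settings, to values of -0.18 to 0.10. The count against the mean of both untreated lines, 2050, was 2041 with the 5 untreated arrays as 1 group, 1895 with the spread from the 8 arrays, 2159 among bright genes and 2185 after median centring, and 1410 to 1972 with 1 array left out. With 1 array left out, the count against the shRNA control line was 1219 to 1689, against the scrambled gRNA control line 458 to 1415, in 1 direction against each 378 to 1001, between the untreated lines 9 to 56, and on the second set of arrays 1462 to 2139. Between the untreated lines 18 genes were called with the spread from the 8 arrays. Where 1 of the scrambled gRNA arrays was left out, the other was assumed to vary like the other groups. The replicate block gave 2049 genes against both lines together, 1724 and 1254 against the shRNA and the scrambled gRNA line, 846 in 1 direction against each, 40 between the untreated lines and 2194 on the second set, and changed no list's count by over 1.5 times. Named genes with small differences lost their call in some settings: ACAT2, ACLY, INSIG1, SESN1, PDIA4, SST and JUNB did so in at least 6 of them, and ASB4 and LY6G6C with the 5 untreated arrays as 1 group. Signals near the bottom of the scale limit what dim genes can show.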

Other observations

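Some further families were picked after their values were seen, so their counts are descriptions beside the 8.01% of all genes called higher. Part of their genes were counted in lists above, such as MCM3, MCM6 and MCM7 in S phase and TIMM17A in mitochondrial import. Of 9 subunits of the CCT chaperonin, which folds actin and tubulin, 8 rose, at a median log2 difference of 0.47, and of 22 nucleoporins 17 rose, also at 0.47, with NUP98 at 0.92 and NUP93 at 0.76. Of 9 MCM genes, most of them parts of the replicative helicase, 8 rose, at a median of 0.59. Of 19 genes of the 20S proteasome 11 rose, with PSMB3 at 0.71, of 13 inner membrane translocases 8, of 13 LSM proteins 8 and of 10 exosome subunits 6. None of these fell. Clustered histone genes rose in 33 of 58, at a median of 0.47.

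Among single genes chosen in the same way, TXNIP, which restrains glucose uptake, fell by 1.12 and its relative ARRDC3 by 0.96. The circadian repressor BHLHE40, already counted in the hypoxia list, fell by 1.17, on the second set of arrays by 1.22. The ligand EREG rose by 0.90 and the neuropeptide GAL by 1.06, and on the second set EREG rose by 2.00 while GAL had -0.19, which did not pass. That value averages opposite differences: GAL had a mean of 6.79 in the DPPA3-induced line, against 7.52 in the DPPA3 shRNA line and 7.26 and 5.61 in the knockout clones. CALB1, a calcium binding protein, fell by 1.14, the peptidase MME by 1.0 and the sorting receptor SORL1 by 0.98. On the second set MME had -1.17 and TXNIP -0.74, which passed. CALB1, SORL1 and ARRDC3 had -0.186, -0.108 and -0.265 there, which did not pass.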
